A study of Mus musculus with 50 samples.

Results

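Loss of Mlkl was examined in the colon of mice that lack FADD in the intestinal epithelium. The 5 arrays titled FADD IEC-KO Mlkl -/- and numbered 11 to 15 were set against the 5 arrays titled FADD IEC-KO and numbered 21 to 25, which are 10 of the 50 arrays of the series. IEC-KO stands for a knockout in intestinal epithelial cells. Both groups therefore carry the epithelial deletion of Fadd, and the first group also carries Mlkl -/-, a genotype written without the epithelial suffix. Further arrays were used where named: Fadd fl/fl (26 to 30), floxed mice without the epithelial deletion; FADD IEC-KO Zbp1 -/- (1 to 5); CASP8 IEC-KO Mlkl -/- (6 to 10) and CASP8 IEC-KO (16 to 20); and a second number series with FADD IEC-KO (89 to 124) and Casp8 fl/fl (86 to 119), 5 arrays each. Mice were 10 to 12 weeks old by the series' design text and 11 weeks old by each array's description. One array was made per sample from frozen colon. The labels do not say that each sample is a separate animal, so the p-values concern samples. The main fit took the spread within groups from all 50 arrays, not from the 10 compared arrays alone. The fit thus also held CASP8 IEC-KO (87 to 108) and FADD IEC-KO RIPK3 IEC-KO (88 to 123) of the second number series, 5 arrays each. The Cre line behind the epithelial deletion is not named in the labels used here.

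FADD is the adaptor that joins death receptors to caspase-8, the protease that starts extrinsic apoptosis and keeps necroptosis in check. Necroptosis is a lytic form of cell death in which the kinase RIPK3 phosphorylates MLKL, which then oligomerises and disrupts the plasma membrane. ZBP1 is a sensor of Z-form nucleic acids that can activate RIPK3. Loss of FADD in the mouse intestinal epithelium is known to give necroptosis and inflammation of the colon, and crossing to Mlkl -/- asks how much of that inflammation needs MLKL.

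All values below are log2 signals of 1 probe set per gene, so a difference of 1 is a 2-fold difference, and signals of different genes are not compared. Array medians lay between 6.41 and 6.47 over the 50 arrays. The colon markers were present in every array of both groups. Epcam, an epithelial adhesion molecule, averaged 11.85 in FADD IEC-KO Mlkl -/- and 11.87 in FADD IEC-KO, and Muc2, the main secreted mucin, averaged 12.73 in FADD IEC-KO Mlkl -/- and 12.87 in FADD IEC-KO. Cdx1, an intestinal transcription factor, averaged 9.33 in FADD IEC-KO Mlkl -/- and 9.38 in FADD IEC-KO, and Vil1, which codes for the microvillus protein villin, averaged 10.42 in FADD IEC-KO Mlkl -/- and 10.53 in FADD IEC-KO. Pancreatic acinar markers, a check for other tissue, had list means of 6.25 to 6.38 in FADD IEC-KO Mlkl -/- and 5.82 to 6.42 in FADD IEC-KO. Adipocyte markers had list means of 5.78 to 5.87 in FADD IEC-KO Mlkl -/- and 5.54 to 6.23 in FADD IEC-KO. In these lists 1 of 13 acinar markers rose with Mlkl loss, Sycn (1.56, adjusted p = 0.0035), and 1 of 9 adipocyte markers, Plin4 (0.71, adjusted p = 0.0205), and their part in the results was not tested. Without FADD IEC-KO arrays 22 and 23 the differences of Sycn and Plin4 were 0.94 and 0.34 (adjusted p = 0.22 and 0.59 by limma). Y-linked genes were high in 3 of 5 FADD IEC-KO Mlkl -/- arrays (12, 14 and 15) and in 2 of 5 FADD IEC-KO arrays (24 and 25), so both sexes were in both groups.

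The FADD IEC-KO arrays were far less alike than the FADD IEC-KO Mlkl -/- arrays. Pairs of arrays correlated at 0.991 to 0.994 over all genes within FADD IEC-KO Mlkl -/- and at 0.965 to 0.990 within FADD IEC-KO. Among the genes that fell with Mlkl loss the median SD was 0.15 in FADD IEC-KO Mlkl -/- and 0.31 in FADD IEC-KO, and 512 of the 572 genes had the larger SD in FADD IEC-KO. FADD IEC-KO arrays 22 and 23 had the highest inflammatory signals and array 21 the lowest. The mean of 19 neutrophil markers was 4.77, 4.75, 4.71, 4.67 and 4.93 in FADD IEC-KO Mlkl -/- arrays 11 to 15, against 5.01, 8.70, 7.40, 5.30 and 5.54 in FADD IEC-KO arrays 21 to 25. Leaving out arrays 22 and 23 changed many of the counts below, and values without them are given beside most of the lists they touch.

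The targeted gene was checked first. Mlkl, the executioner of necroptosis, had log2 signals of 7.18, 7.21, 7.33, 7.16 and 7.00 in FADD IEC-KO Mlkl -/-, against 8.73, 9.56, 8.98, 9.17 and 9.17 in FADD IEC-KO. The groups did not overlap, and Mlkl was lower by 1.95 (SE 0.17, adjusted p = 8.2e-11, limma over all 50 arrays). The level also lay below the Fadd fl/fl arrays, which were at 8.00 to 8.54. The labels used here do not say where the probe set lies relative to the deleted part of Mlkl. Fadd itself had 6.22 to 6.50 in FADD IEC-KO Mlkl -/- and 6.22 to 6.50 in FADD IEC-KO, both below the 7.12 to 7.61 of Fadd fl/fl. In FADD IEC-KO Mlkl -/- against Fadd fl/fl the difference in Fadd was -1.02 (SE 0.11, adjusted p = 3e-07). Other cells of the colon keep both copies of Fadd by the genotype as written.

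Ripk3, the kinase upstream of MLKL, fell with Mlkl loss. Its signals were 7.23, 7.08, 7.20, 6.98 and 7.34 in FADD IEC-KO Mlkl -/-, against 7.62, 9.66, 8.47, 7.85 and 8.04 in FADD IEC-KO, with no overlap (log2 difference -1.16, SE 0.25, adjusted p = 0.00501). Without arrays 22 and 23 the difference was -0.67 and missed the threshold (adjusted p = 0.28). Zbp1 had 6.64, 6.90, 7.13, 6.65 and 6.73 in FADD IEC-KO Mlkl -/-, against 6.34, 8.03, 7.50, 7.31 and 7.27 in FADD IEC-KO, and the difference of -0.48 did not pass (adjusted p = 0.32). Every FADD IEC-KO Mlkl -/- array was above every Fadd fl/fl array for Zbp1 (5.36 to 5.82), a difference of 1.13 with adjusted p = 0.059. Casp8, the protease that FADD recruits, differed by -0.02 between FADD IEC-KO Mlkl -/- and FADD IEC-KO (adjusted p = 0.94).

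**Figure D1:**
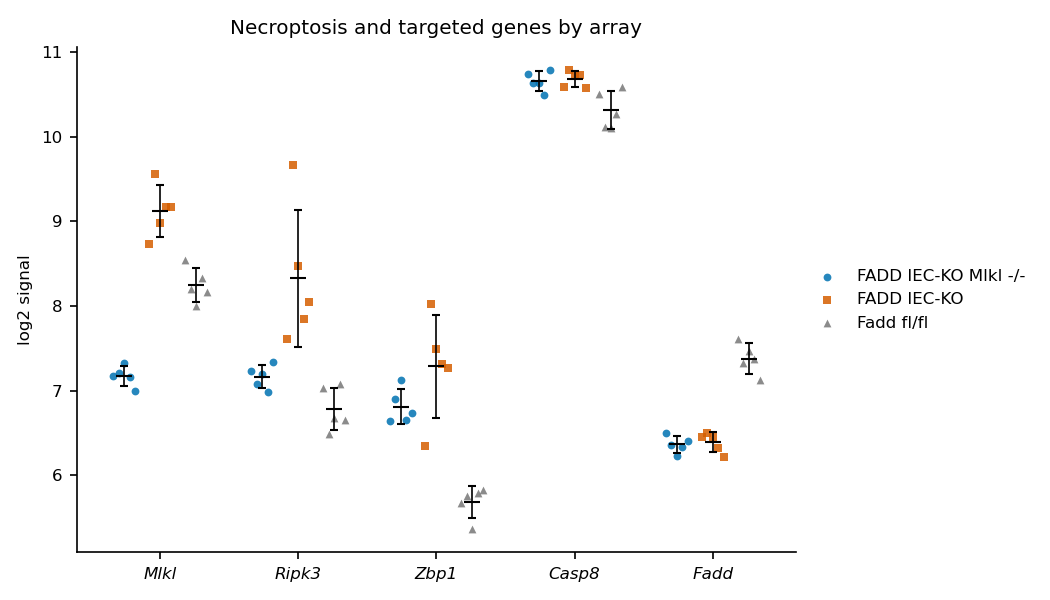
Log2 signal (y axis) of 5 genes of the necroptosis pathway in each array, with the mean and SD of 5 arrays per group as black bars. Mlkl in FADD IEC-KO Mlkl -/- (7.00 to 7.33) lay below FADD IEC-KO and Fadd fl/fl, Fadd was low in both knockout groups, and Zbp1 in FADD IEC-KO Mlkl -/- lay above Fadd fl/fl.

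Across 19494 genes, 572 (2.93%) fell and 568 (2.91%) rose with Mlkl loss at an adjusted p under 0.05. Of these, 131 genes fell and 57 rose by at least 2-fold. The arrays of both groups did not overlap for 836 genes (4.29%), 445 of them lower and 391 higher in FADD IEC-KO Mlkl -/-. Among the called genes 256 fell and 224 rose with no overlap. At an unadjusted p under 0.05 by limma, 1979 genes were lower and 2062 higher. Without FADD IEC-KO arrays 22 and 23 the same limma test called 8 genes lower (0.041%) and 0 higher (0%), with 988 lower and 1023 higher at an unadjusted p under 0.05. The 8 genes were Mlkl, Ccl8, Cd177, Tiam1, Ceacam10, Cdca7l, Pipox and Aldoc, of which the last 5 were named after their values were seen. Of the genes called with all arrays, 570 of 572 and 568 of 568 kept their direction without the 2 arrays, with medians of -0.39 and 0.42. Conversely, without FADD IEC-KO array 21 the counts were 1072 lower and 1084 higher. Of the 32 gene lists described below, 25 had at least 1 call with all arrays and 3 without arrays 22 and 23, through Mlkl, Ccl8 and Cd177. When only the 10 arrays of the comparison were fitted, 34 genes fell and 17 rose, of which 33 and 16 were also called over all arrays. In that fit 0 of 30 interferon-gamma genes and 0 of 18 smooth muscle genes passed. Of 19 neutrophil markers 1 fell, and of 26 antimicrobial and stress genes 7 fell.

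The largest falls among genes without overlap were in epithelial defence and acute inflammation. Retnlb, which codes for an antibacterial protein of goblet cells, had 2.96, 2.95, 3.40, 3.02 and 2.94 in FADD IEC-KO Mlkl -/-, against 4.31, 9.85, 10.09, 7.98 and 8.72 in FADD IEC-KO. It was 35.2-fold lower (log2 difference -5.14, SE 0.79, adjusted p = 0.000313), and its level was within the range of Fadd fl/fl (2.63 to 3.51). When arrays 22 and 23 were left out, the difference was -3.95 (adjusted p = 0.062). Nos2, the inducible nitric oxide synthase, had 4.27, 5.08, 4.90, 4.15 and 4.60 in FADD IEC-KO Mlkl -/-, against 6.19, 10.43, 9.02, 8.12 and 8.59 in FADD IEC-KO (-3.87, SE 0.71, adjusted p = 0.00148). Clca4b, a member of the calcium-activated chloride channel regulator family, had 8.05, 7.51, 7.76, 7.64 and 8.23 in FADD IEC-KO Mlkl -/-, against 10.02, 12.60, 12.02, 11.88 and 12.37 in FADD IEC-KO (-3.94, SE 0.74, adjusted p = 0.00209). For these genes all 5 FADD IEC-KO arrays lay above every FADD IEC-KO Mlkl -/- array, but array 21 lay well below the other FADD IEC-KO arrays.

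In other genes FADD IEC-KO arrays 22 and 23 stood well above the other 3. S100a8, a subunit of calprotectin made by neutrophils and inflamed epithelium, had 3.22, 2.77, 2.93, 2.51 and 3.41 in FADD IEC-KO Mlkl -/-, against 4.21, 11.26, 8.93, 5.48 and 5.30 in FADD IEC-KO. The difference was -4.07 (SE 0.89, adjusted p = 0.00519) with all arrays and -2.03 (adjusted p = 0.35) without the 2 arrays. Lcn2, the siderophore-binding lipocalin, had 5.58, 5.07, 4.70, 4.81 and 4.95 in FADD IEC-KO Mlkl -/-, against 6.06, 10.97, 9.83, 6.67 and 6.98 in FADD IEC-KO. Its difference was -3.08 (adjusted p = 0.00346) and, without arrays 22 and 23, -1.55 (adjusted p = 0.29). Ccl3, a chemokine for monocytes and neutrophils, had 4.60 to 4.95 in FADD IEC-KO Mlkl -/- and 4.99, 10.24, 8.90, 5.33 and 5.81 in FADD IEC-KO. It was lower by 2.28 with all arrays (a log2 difference of -2.28, adjusted p = 0.0195), and the difference was -0.60 without the 2 arrays (adjusted p = 0.75). Cxcl2, a neutrophil chemokine, and Hp, the haemoglobin-binding haptoglobin, had the same form, with differences of -2.39 and -2.36 over all arrays and of -0.77 and -0.79 without the 2 arrays. In the limma fit of the 10 compared arrays alone, S100a8, Lcn2, Ccl3, Cxcl2 and Hp did not pass. Their adjusted p there was 0.088, 0.084, 0.20, 0.17 and 0.16. Plet1, a surface marker of injured colon epithelium, Pla2g2a, a secreted antibacterial phospholipase, and Serpina3n, an acute phase protease inhibitor, lost less of their difference. They fell by 3.27, 3.01 and 2.62 on the log2 scale with all arrays, and without the 2 arrays their differences were -2.37, -2.30 and -1.83 (adjusted p = 0.32, 0.12 and 0.075).

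The antimicrobial and stress genes of the epithelium were described as a list of 26 measured genes. Of these, 15 fell and 0 rose, against 2.93% of all genes that fell, and the list's median difference was -1.24, against 0.01 over all genes. In 11 of the 26 the FADD IEC-KO Mlkl -/- arrays all lay below the FADD IEC-KO arrays, against 445 of all 19494 genes. Muc1, a transmembrane mucin, had 8.13, 7.97, 8.14, 8.13 and 7.52 in FADD IEC-KO Mlkl -/-, against 8.63, 9.43, 10.13, 9.43 and 9.36 in FADD IEC-KO, a difference of -1.42 (SE 0.22, adjusted p = 0.000313). All 5 FADD IEC-KO Mlkl -/- arrays also lay below the Fadd fl/fl arrays for Muc1 (8.20 to 8.86), a difference of -0.51 (adjusted p = 0.455). With arrays 22 and 23 left out, the limma test passed for 0 of the 26 genes, with 16 lower at an unadjusted p under 0.05, and the median difference was -0.41.

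Cytokines and chemokines fell less uniformly. Of 25 measured genes 10 fell and 0 rose, with a median difference of -0.56. Without arrays 22 and 23 only Ccl8 passed, and the median was -0.18. Tnf, the cytokine that signals through FADD and caspase-8, had 4.88, 5.13, 5.20, 5.00 and 5.53 in FADD IEC-KO Mlkl -/-, against 5.91, 8.82, 7.70, 6.78 and 6.95 in FADD IEC-KO. The groups did not overlap (-2.08, SE 0.43, adjusted p = 0.0035). Ccl8, a monocyte chemokine, behaved differently from Ccl3, with 4.86, 5.49, 5.18, 4.53 and 5.49 in FADD IEC-KO Mlkl -/-, against 6.85, 7.05, 7.26, 6.52 and 6.41 in FADD IEC-KO. Its difference was -1.71 (SE 0.25, adjusted p = 0.000214) with all arrays and -1.48 (adjusted p = 0.025) without arrays 22 and 23. Il6 was at 2.05 to 2.51 in FADD IEC-KO Mlkl -/-, and in FADD IEC-KO only arrays 22 and 23 stood out, at 6.63 and 5.33, with the others at 2.34 to 2.69. Its call (-1.62, adjusted p = 0.0178) therefore came with a difference of -0.24 when these 2 arrays were left out. In the limma fit of the 10 compared arrays alone the adjusted p of Il6 was 0.27.

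**Figure D2:**
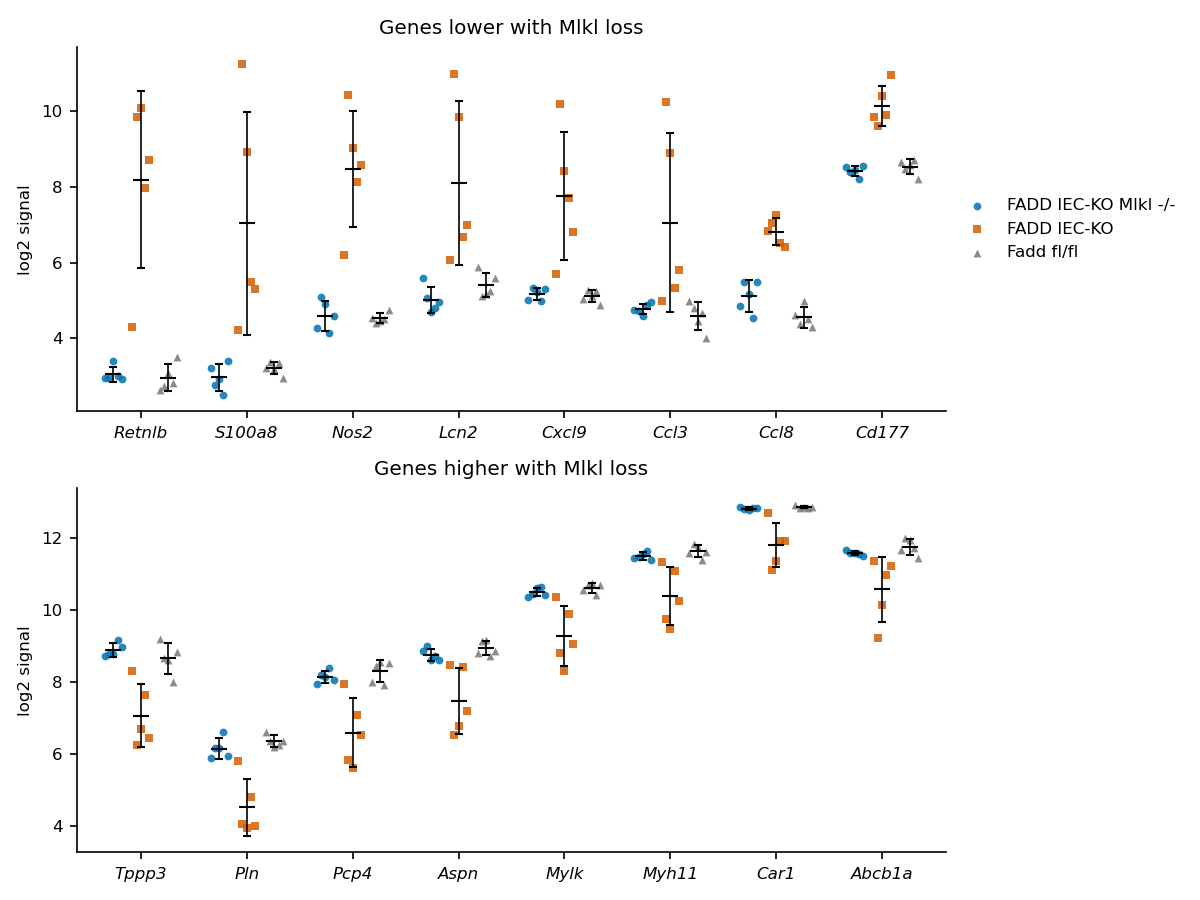
Log2 signal (y axis) of 8 genes that fell (top) and 8 that rose (bottom) with Mlkl loss, 1 point per array, with mean and SD of 5 arrays per group. The FADD IEC-KO Mlkl -/- arrays lay close together and near Fadd fl/fl, while the FADD IEC-KO arrays were spread, as in S100a8 (4.21 to 11.26).

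Markers of myeloid cells moved with these genes. Among 19 neutrophil markers, 13 fell and 0 rose, with a median difference of -1.27. In the fit of the 10 compared arrays alone 1 of the 19 fell. S100a9, the partner of S100a8, had 4.08 to 4.68 in FADD IEC-KO Mlkl -/- and 4.64, 10.70, 8.46, 5.42 and 5.65 in FADD IEC-KO (-2.61, adjusted p = 0.0176). In bulk colon, fewer cells of a type and less RNA per cell cannot be told apart. Cd177, a surface glycoprotein of neutrophils that some epithelial cells also express, had 8.52, 8.39, 8.45, 8.20 and 8.54 in FADD IEC-KO Mlkl -/-, against 9.84, 9.60, 10.41, 9.90 and 10.94 in FADD IEC-KO. Its highest arrays were 25 and 23 rather than 22, and its difference was -1.72 with all arrays (SE 0.30, adjusted p = 0.000814) and -1.81 without arrays 22 and 23 (adjusted p = 0.021). It was the single neutrophil marker that passed without the 2 arrays, where the list's median was -0.34. Of 20 monocyte and macrophage markers 7 fell and 1 rose, with a median of -0.40. When arrays 22 and 23 were left out, the limma test passed for 0 of them, with 3 lower and 1 higher at an unadjusted p under 0.05, and the median was -0.10. Ly6c2, a marker of inflammatory monocytes, had 7.57, 7.56, 7.53, 7.31 and 7.51 in FADD IEC-KO Mlkl -/-, against 8.19, 10.48, 9.20, 8.55 and 9.05 in FADD IEC-KO (-1.60, SE 0.36, adjusted p = 0.00614). Cd14, the endotoxin co-receptor, fell by 1.22 (adjusted p = 0.00338), Fcgr4, an activating Fc receptor, fell by 1.62 (adjusted p = 0.00732) and Itgam fell by 1.03 (adjusted p = 0.0137).

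Lymphoid and mast cell markers passed the test in few members. Of 20 T cell and cytotoxic lymphocyte markers 1 fell, Klrk1, the activating receptor NKG2D (-0.54, adjusted p = 0.0326), although all 20 had a lower mean in FADD IEC-KO Mlkl -/- (median -0.54). At an unadjusted p under 0.05 by limma, 13 of the 20 were lower, against 1979 of all 19494 genes. B cell and plasma cell markers were split, with 2 of 17 lower, Prdm1 (-1.52) and Mzb1 (-1.29), both used by plasma cells, and a list median of 0.26. Of 14 eosinophil and mast cell markers 2 fell, Cpa3 (-0.88, adjusted p = 0.0121) and Mcpt4 (-0.66, adjusted p = 0.0411), both mast cell proteases. Mcpt4 was highest in FADD IEC-KO arrays 23 and 21 (4.90 and 4.08) and lowest in array 22 (3.35), unlike the neutrophil genes. With arrays 22 and 23 left out, the limma test passed for 0 genes of these 3 lists, with 1 T cell, 2 B cell and 2 eosinophil and mast cell markers lower and 1 of the last higher at an unadjusted p under 0.05. Of all 19494 genes 988 were then lower and 1023 higher at that threshold. Of 14 complement genes 5 fell and 0 rose, and without the 2 arrays 0 passed by limma, with 2 lower at an unadjusted p under 0.05. C4b had 8.05, 8.27, 8.10, 7.99 and 8.09 in FADD IEC-KO Mlkl -/-, against 8.65, 9.33, 8.92, 8.91 and 8.55 in FADD IEC-KO (-0.77, SE 0.13, adjusted p = 0.00071), with no overlap.

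The interferon genes were followed as 2 lists, and Mlkl loss was accompanied by a fall in most members of the first and in none of the second. Interferon-gamma acts through short sites with the letters TTCNNNGAA, called GAS, and induces antigen processing genes and guanylate-binding proteins. Type I and type III interferons act mainly through sites called ISRE, which hold 2 copies of GAAA separated by 2 free bases. The 4 promoters below were chosen after values and matches were seen, to show what the sites look like in genes of both groups. They are RefSeq sequence of build GRCm38.p6, the 150 bases just before the annotated start, 5′ to 3′ on the gene's strand, with matches on either strand in capitals. Irf1, a transcription factor, and Gbp2, a guanylate-binding protein, belong to the interferon-gamma list, and Ifit1 and Isg15, antiviral effectors, to the type I list. The windows are chr11:53769864-53770013 (plus strand), chr3:142620513-142620662 (plus), chr19:34640739-34640888 (plus) and chr4:156200819-156200968 (minus), in the order shown.
Irf1: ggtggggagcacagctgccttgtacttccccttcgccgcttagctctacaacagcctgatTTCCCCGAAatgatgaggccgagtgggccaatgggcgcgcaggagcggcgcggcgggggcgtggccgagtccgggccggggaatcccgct
Gbp2: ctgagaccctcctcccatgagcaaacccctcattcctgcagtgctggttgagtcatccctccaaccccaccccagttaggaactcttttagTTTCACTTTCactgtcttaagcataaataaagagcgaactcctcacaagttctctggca
Ifit1: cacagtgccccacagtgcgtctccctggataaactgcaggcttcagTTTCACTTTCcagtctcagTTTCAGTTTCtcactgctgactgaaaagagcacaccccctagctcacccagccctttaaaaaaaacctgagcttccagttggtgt
Isg15: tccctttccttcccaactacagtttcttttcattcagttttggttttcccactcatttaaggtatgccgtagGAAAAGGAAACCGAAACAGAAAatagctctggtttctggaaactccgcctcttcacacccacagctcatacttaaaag

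The match in Irf1 is a GAS at 90 to 82 bases before the start, and Gbp2 holds 1 ISRE match at 59 to 50 bases. Ifit1 holds 2 separate ISRE matches at 104 and 85 bases, and Isg15 holds 3 overlapping ones at 78, 72 and 66 bases, counted at their first base. In windows of 250 bases before to 50 after the start, 7 of 23 interferon-gamma genes with an entry held a GAS match (30.4%) and 9 an ISRE match (39.1%). Of 18 type I genes with an entry, 4 held a GAS match (22.2%) and 12 an ISRE match (66.7%). Among all 15683 tested genes with an entry the shares were 9.03% for GAS and 3.94% for ISRE, with a gene counted once if any of its starts held a match. A match to these letters is a description of sequence, not of binding.

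Of 30 measured genes of the interferon-gamma response and antigen presentation, 26 fell with Mlkl loss and 0 rose, and all 30 had a lower mean in FADD IEC-KO Mlkl -/- (median -1.09). Gbp2 had 7.01, 7.15, 7.72, 6.99 and 7.34 in FADD IEC-KO Mlkl -/-, against 7.49, 10.92, 9.89, 9.84 and 8.73 in FADD IEC-KO (-2.13, SE 0.44, adjusted p = 0.0037). FADD IEC-KO array 21 lay inside the FADD IEC-KO Mlkl -/- range and the other 4 above it. Irf1, shown above by its promoter, had 9.01, 9.24, 9.10, 9.07 and 9.27 in FADD IEC-KO Mlkl -/-, against 9.51, 10.74, 10.10, 9.84 and 9.97 in FADD IEC-KO, with no overlap (-0.89, SE 0.18, adjusted p = 0.00265). Iigp1, an immunity-related GTPase, had 5.23 to 5.74 in FADD IEC-KO Mlkl -/-, against 5.46, 9.58, 8.72, 8.31 and 7.62 in FADD IEC-KO (-2.53, adjusted p = 0.00138). Psmb10, an immunoproteasome subunit, fell by 0.94 (adjusted p = 0.00346), and Cxcl9, a T cell chemokine, fell by 2.59 (adjusted p = 0.00692). Ido1, which degrades tryptophan, had 4.77, 5.38, 5.95, 5.33 and 5.95 in FADD IEC-KO Mlkl -/-, against 5.36, 11.05, 9.14, 9.36 and 8.20 in FADD IEC-KO, a difference of -3.15 (adjusted p = 0.00748). Arrays of both groups overlapped in 25 of the 30 genes, mostly through array 21. Without arrays 22 and 23 the limma test passed for 0 of the 30, with 22 lower at an unadjusted p under 0.05 and a median difference of -0.74. In the fit of the 10 compared arrays alone 0 of the 30 passed as well.

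The type I genes did not share this fall. Of 25 measured genes 0 fell and 0 rose in FADD IEC-KO Mlkl -/- against FADD IEC-KO by limma, with 1 lower and 0 higher at an unadjusted p under 0.05, and the median difference was 0.08. Ifit1 had 7.63, 7.58, 6.97, 6.01 and 6.55 in FADD IEC-KO Mlkl -/-, against 5.69, 6.99, 6.23, 5.94 and 7.12 in FADD IEC-KO, a difference of 0.55 (adjusted p = 0.48). Isg15 had 6.19, 5.85, 6.23, 5.36 and 5.49 in FADD IEC-KO Mlkl -/-, against 5.01, 6.23, 5.90, 5.51 and 6.25 in FADD IEC-KO (0.04, adjusted p = 0.96). Oasl2, an antiviral protein, had 9.91, 9.78, 9.86, 9.02 and 9.08 in FADD IEC-KO Mlkl -/-, against 7.98, 9.70, 8.61, 8.60 and 9.55 in FADD IEC-KO (0.64, adjusted p = 0.395). Oas1b, a close relative outside the list, rose by 0.42 (adjusted p = 0.0134), the exception among the interferon genes named here. Within FADD IEC-KO Mlkl -/-, arrays 14 and 15 were the lowest for Ifit1, Isg15 and Oasl2. The list mean was 7.15, 7.22, 7.11, 6.67 and 6.68 in FADD IEC-KO Mlkl -/- and 6.44, 7.32, 6.87, 6.69 and 7.15 in FADD IEC-KO, while Fadd fl/fl lay at 5.99 to 6.31.

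Set against Fadd fl/fl, the type I genes were the list with the most changes, 7 of 25. Over all genes 13 rose (0.0667%) and 18 fell (0.0923%), and 7 of the 13 were among the 25 type I genes. These 7 were Rtp4, Irf7, Oasl2, Ifit1, Oas1a, Irf9 and Isg15, and the 13 also held Oas1b, Oas1g and Apol9a, relatives of interferon-induced genes outside the list. Rtp4, a receptor transporter protein induced by interferon, had 6.86, 7.07, 6.68, 6.19 and 6.10 in FADD IEC-KO Mlkl -/-, against 5.02, 4.13, 4.15, 4.20 and 4.54 in Fadd fl/fl (2.17, SE 0.33, adjusted p = 0.000409). Oasl2 had 9.02 to 9.91 in FADD IEC-KO Mlkl -/-, against 7.44, 6.89, 6.29, 7.06 and 7.49 in Fadd fl/fl, a difference of 2.50 (SE 0.41, adjusted p = 0.000959). Irf7, the transcription factor that amplifies type I interferon, had 9.52, 9.55, 9.51, 9.04 and 8.99 in FADD IEC-KO Mlkl -/-, against 8.03, 7.88, 7.94, 7.31 and 7.78 in Fadd fl/fl (1.53, SE 0.25, adjusted p = 0.000961). These 3 genes passed in each of the 10 fits that left out 1 array and in the fit of the 10 compared arrays alone. Ifit1 (1.99, adjusted p = 0.0193) passed in 4 of the 10 and Isg15 (1.41, adjusted p = 0.0475) in 2 of the 10. All 25 type I genes had a higher mean in FADD IEC-KO Mlkl -/- than in Fadd fl/fl, with a median of 0.61, and in 14 (56%) all 5 arrays lay above all Fadd fl/fl arrays, against 1.21% of all genes. The interferon-gamma list had a median of 0.28 in the same comparison, and 26 of its 30 genes had a higher mean than in Fadd fl/fl. In 6 of the 30 (20%) all 5 arrays lay above all Fadd fl/fl arrays, and 0 passed. At an unadjusted p under 0.05 by limma, 8 of the 30 were higher, against 22 of 25 type I genes and 774 of all 19494 genes.

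**Figure D3:**
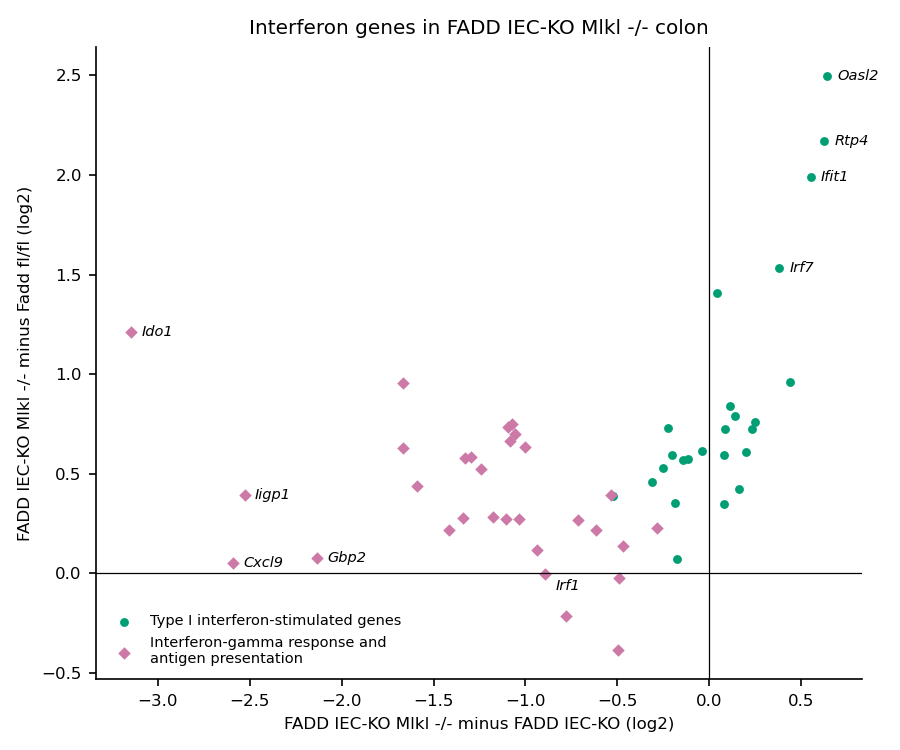
Each point is 1 gene, with its log2 difference of FADD IEC-KO Mlkl -/- from FADD IEC-KO on the x axis and from Fadd fl/fl on the y axis. The interferon-gamma genes lay left of 0 (median -1.09), and the type I genes lay around 0 on the x axis and above 0 on the y axis (medians 0.08 and 0.61). Both axes use the FADD IEC-KO Mlkl -/- arrays.

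The other rises over Fadd fl/fl were Mt1, a metallothionein (0.55, adjusted p = 0.00749), Aqp4, a basolateral water channel of colonocytes (1.29, adjusted p = 0.0111), and Mrpl12, a mitochondrial ribosome protein (0.33, adjusted p = 0.0386). All were named because they complete the count. Aqp4 had 9.94, 10.39, 9.48, 9.00 and 9.51 in FADD IEC-KO Mlkl -/-, between 10.40 to 10.45 in FADD IEC-KO and 7.85 to 8.90 in Fadd fl/fl, with no overlap on either side. Apart from Mlkl and Fadd, the largest fall against Fadd fl/fl was 0.59 on the log2 scale, in Pot1b (-0.59, adjusted p = 0.00749), a telomere-binding protein named after its values were seen. In the fit of the 10 compared arrays 31 genes also passed, but 14 of them were among the 31 called here, and Aqp4, Mt1, Mrpl12, Pot1b and Oas1a did not pass (adjusted p = 0.0555, 0.0876, 0.157, 0.0739 and 0.07). The count was 8 to 72 with 1 array left out, lowest without Fadd fl/fl array 29 and highest without array 26.

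Members of the death pathways other than Ripk3 fell in part. Of 19 measured necroptosis and death receptor genes 6 fell, Mlkl among them, and 0 rose. When arrays 22 and 23 were left out, Mlkl alone passed, and the list's median was -0.18, against -0.39 with all arrays. Tnfsf10, the death receptor ligand TRAIL, had 6.78, 6.84, 6.75, 6.48 and 6.44 in FADD IEC-KO Mlkl -/-, against 7.11, 8.10, 8.02, 7.62 and 7.86 in FADD IEC-KO (-1.09, SE 0.20, adjusted p = 0.00209), with no overlap. The list mean was 7.38 to 7.46 in FADD IEC-KO Mlkl -/-, 7.59 to 8.41 in FADD IEC-KO and 7.35 to 7.49 in Fadd fl/fl. Gasdermins, which form membrane pores in pyroptosis, moved both ways. Gsdmd, the target of inflammatory caspases, had 9.20, 9.22, 9.20, 9.33 and 9.28 in FADD IEC-KO Mlkl -/-, against 9.44, 10.09, 9.57, 9.60 and 9.88 in FADD IEC-KO (-0.47, adjusted p = 0.0156). Gsdmc4 had 11.79, 11.95, 11.96, 11.91 and 11.91 in FADD IEC-KO Mlkl -/-, against 11.54, 10.85, 11.47, 11.74 and 11.57 in FADD IEC-KO (0.47, adjusted p = 0.00656), and Gsdmc (0.68) and Gsdmc2 (0.61) rose as well. The Gsdmc copies are close paralogs, so their probe sets may share targets. In the list of 21 gasdermin, inflammatory caspase and inflammasome genes 2 fell and 4 rose. With arrays 22 and 23 left out, the limma test passed for 0 of the 21, with 3 lower and 3 higher at an unadjusted p under 0.05.

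Among the 12 largest rises without overlap, 4 were genes of the smooth muscle list: Pln, Pcp4, Mylk and Myh11. Of 18 smooth muscle contraction genes all 18 rose (2.91% of all genes did), with a median difference of 0.98. Myh11, smooth muscle myosin heavy chain, had 11.46, 11.47, 11.57, 11.65 and 11.39 in FADD IEC-KO Mlkl -/-, against 11.34, 9.77, 9.49, 11.11 and 10.26 in FADD IEC-KO (1.11, SE 0.23, adjusted p = 0.00404). Pln, phospholamban, had 5.89, 6.17, 6.17, 6.62 and 5.95 in FADD IEC-KO Mlkl -/-, against 5.80, 4.07, 3.95, 4.80 and 4.01 in FADD IEC-KO (1.63, SE 0.30, adjusted p = 0.00125). Pcp4, a calmodulin regulator, rose by 1.55 and Mylk, myosin light chain kinase, by 1.21 (adjusted p = 0.0024 and 0.00381). In all 4 genes FADD IEC-KO arrays 22, 23 and 25 were the lowest, and array 21 was close to FADD IEC-KO Mlkl -/-. In 8 of the 18 all FADD IEC-KO Mlkl -/- arrays lay above the FADD IEC-KO arrays, against 391 of all 19494 genes. The list mean was 9.89 to 10.20 in FADD IEC-KO Mlkl -/- and 9.88, 8.54, 8.35, 9.53 and 8.67 in FADD IEC-KO, while Fadd fl/fl lay at 10.03 to 10.25. Over the same FADD IEC-KO arrays the neutrophil list mean was 5.01, 8.70, 7.40, 5.30 and 5.54, so the arrays lowest in muscle genes included the 2 highest in neutrophil genes, and array 25 was low in muscle genes at a neutrophil mean of 5.54. The share of muscle wall in each piece of tissue and the part it had in these values were not tested. Without arrays 22 and 23 the limma test passed for 0 of the 18, with 16 higher at an unadjusted p under 0.05 and a median difference of 0.62. In the fit of the 10 compared arrays alone 0 of the 18 passed as well.

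**Figure D4:**
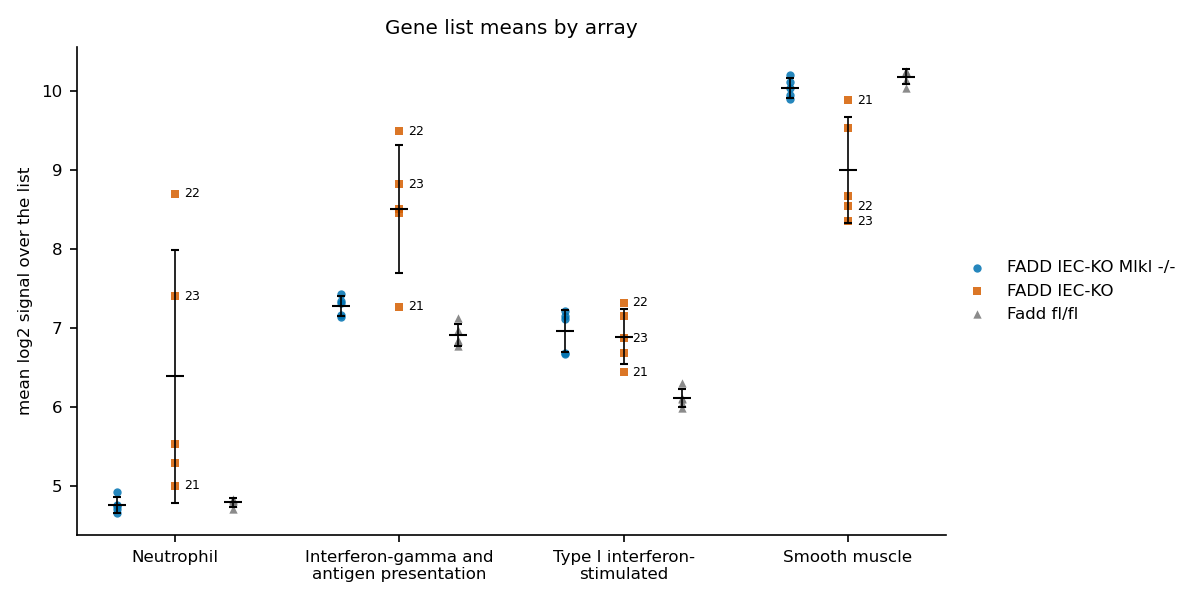
Mean log2 signal over the genes of 4 lists (y axis), 1 point per array, with mean and SD of 5 arrays per group, and FADD IEC-KO arrays 21, 22 and 23 numbered. Arrays 22 and 23 were highest for neutrophil and interferon-gamma genes and lowest for smooth muscle genes, and type I genes lay above Fadd fl/fl in both knockout groups.

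Stromal and neuronal genes rose in part. Tppp3, a tubulin-binding protein, showed the largest rise among genes without overlap, with 8.72, 8.78, 8.78, 9.18 and 8.98 in FADD IEC-KO Mlkl -/-, against 8.31, 6.27, 6.70, 7.66 and 6.44 in FADD IEC-KO (1.81, SE 0.35, adjusted p = 0.00254). Aspn, the matrix proteoglycan asporin, rose by 1.28 (adjusted p = 0.00536), C1qtnf3, a secreted C1q and TNF related protein, by 1.50 (adjusted p = 0.00338), and Kcnn2, a calcium-activated potassium channel, by 1.22 (adjusted p = 0.000313). Abi3bp, Ccdc3, Tppp and Fat4 completed the 12 largest rises, at 1.16 to 1.40. Of 22 fibroblast and extracellular matrix genes 5 rose and 1 fell, and the median was 0.18. When arrays 22 and 23 were left out, the median was 0.47, with 16 of the 22 higher at an unadjusted p under 0.05 and 0 that passed by limma. Dpt, dermatopontin, had 10.18, 10.67, 10.03, 10.40 and 10.26 in FADD IEC-KO Mlkl -/-, against 9.86, 9.09, 8.95, 9.36 and 8.92 in FADD IEC-KO (1.07, SE 0.20, adjusted p = 0.00234). Lum, lumican, had 8.28, 8.74, 8.27, 8.48 and 7.99 in FADD IEC-KO Mlkl -/-, against 7.65, 7.26, 7.51, 7.54 and 6.79 in FADD IEC-KO, and its difference was 1.00 with all arrays (adjusted p = 0.00691) and 1.02 without arrays 22 and 23 (adjusted p = 0.14). Among 16 enteric neuron and glia genes 3 rose, Stmn2 (0.73), Syt1 (0.68) and Prph (0.52), and 1 fell, Gal (-0.58), which codes for the neuropeptide galanin. With arrays 22 and 23 left out, the limma test passed for 0 of the 16, with 9 higher at an unadjusted p under 0.05, and the median was 0.39, against 0.35 with all arrays. Of 18 endothelial markers 1 fell, Selp, the adhesion molecule P-selectin (-1.23, adjusted p = 0.0424), which was at 8.08 in FADD IEC-KO array 22 and at 4.84 to 6.49 in the other 4. The difference of Selp was -0.36 without arrays 22 and 23 (adjusted p = 0.78 by limma).

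Genes of mature colonocytes moved both ways. Of 29 colonocyte transport and absorptive genes 5 rose and 2 fell, with a median difference of 0.24. Without arrays 22 and 23 the limma test passed for 0 of the 29, with 4 lower and 2 higher at an unadjusted p under 0.05, and the median was 0.03. Car1, the carbonic anhydrase of colonocytes, had 12.88, 12.81, 12.77, 12.83 and 12.85 in FADD IEC-KO Mlkl -/-, against 12.70, 11.13, 11.38, 11.92 and 11.92 in FADD IEC-KO (1.02, SE 0.20, adjusted p = 0.00248), and overlapped with Fadd fl/fl (12.83 to 12.94). Slc9a2, a sodium-proton exchanger, rose by 0.63 and Cftr, the chloride channel, by 0.52 (adjusted p = 0.0303 and 0.0323). Scnn1b, a subunit of the epithelial sodium channel, fell by 0.73 (adjusted p = 0.018). Of 33 xenobiotic and steroid metabolism genes 4 rose and 1 fell, and without arrays 22 and 23 the limma test passed for 0, with 4 lower and 2 higher at an unadjusted p under 0.05 and a median of 0.02, against 0.22 with all arrays. Cyp2c55, a cytochrome P450 of the colon, had 9.88, 11.51, 9.48, 10.88 and 10.36 in FADD IEC-KO Mlkl -/-, against 10.21, 5.02, 7.95, 8.65 and 7.03 in FADD IEC-KO, a difference of 2.65 (SE 0.64, adjusted p = 0.01) in which array 21 lay inside the FADD IEC-KO Mlkl -/- range. Abcb1a, the drug efflux pump, had 11.52 to 11.68 in FADD IEC-KO Mlkl -/-, against 11.38, 9.22, 10.15, 10.98 and 11.23 in FADD IEC-KO (1.00, adjusted p = 0.011). Ces2e, a carboxylesterase, went the other way, with 8.10, 8.18, 7.97, 7.64 and 8.10 in FADD IEC-KO Mlkl -/-, against 8.80, 8.21, 8.95, 8.59 and 9.98 in FADD IEC-KO (-0.91, adjusted p = 0.0106).

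Goblet, stem and stress genes gave few calls, and without arrays 22 and 23 the limma test passed for 0 of them. At an unadjusted p under 0.05 there were then 3 goblet, 2 injury repair and 3 endoplasmic reticulum stress genes lower, 1, 2 and 1 of these lists higher, and 4 stem cell genes higher. Of all 19494 genes 988 were then lower and 1023 higher. Of 19 goblet cell markers 3 fell and 2 rose. Spink4, a secreted goblet cell peptide, had 11.08, 11.19, 11.02, 10.98 and 10.83 in FADD IEC-KO Mlkl -/-, against 11.44, 11.64, 12.46, 11.93 and 11.78 in FADD IEC-KO (-0.83, SE 0.17, adjusted p = 0.00404), and Klk1, a kallikrein, rose by 0.59 (adjusted p = 0.0134). Of 16 stem cell and Wnt genes 2 rose, Axin2 (0.48, adjusted p = 0.0296), a feedback inhibitor of Wnt signalling, and Tnfrsf19 (0.38, adjusted p = 0.0175). In the list of 20 injury repair and fetal-like genes 3 fell, Sprr1a (-1.05), Sprr2h (-0.97) and Mmp10 (-1.68), the last with 8.46 and 6.95 in FADD IEC-KO arrays 22 and 23 and 3.46 to 4.48 in the other 3. Of 15 endoplasmic reticulum stress and amino acid response genes 2 fell, Asns, asparagine synthetase (-0.87, adjusted p = 0.00125), and Calr (-0.37, adjusted p = 0.0257). In the list of 15 genes of tryptophan, nitric oxide and arginine metabolism 6 fell and 0 rose (without arrays 22 and 23, 4 lower and 1 higher at an unadjusted p under 0.05), among them Wars, tryptophanyl-tRNA synthetase (-0.92, adjusted p = 0.00124), and Ddah1, which degrades an inhibitor of nitric oxide synthase (-1.93, adjusted p = 0.00241). Of 24 proliferation genes 0 fell and 0 rose by limma, although all 24 had a lower mean in FADD IEC-KO Mlkl -/- (median -0.29) and 10 had an unadjusted p under 0.05. The median of the proliferation list was -0.17 without arrays 22 and 23, with 1 gene lower at an unadjusted p under 0.05 by limma. Tuft cell, enteroendocrine, fatty acid oxidation and immediate early lists also had 0 calls, with 1 of 13, 2 of 14, 5 of 24 and 2 of 13 members at an unadjusted p under 0.05. Of all 19494 genes 1979 were lower and 2062 higher at that threshold, so these counts were near or under the share of all genes. The medians of these lists lay between -0.03 and 0.13.

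**Figure D5:**
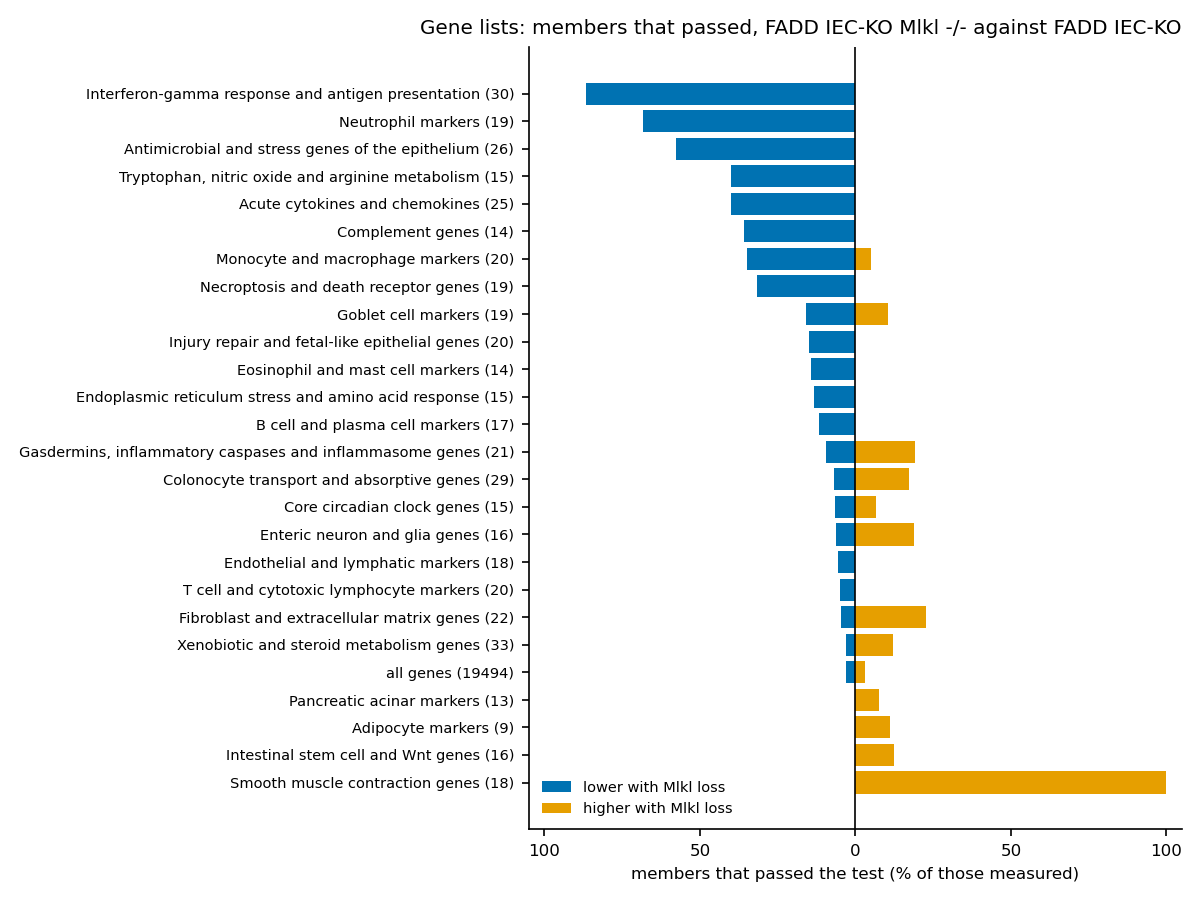
Share of each list's measured members (number in parentheses) that passed the test in FADD IEC-KO Mlkl -/- against FADD IEC-KO, lower to the left and higher to the right, for lists with at least 1 call and for all genes. The interferon-gamma list had 26 of 30 members lower and the smooth muscle list 18 of 18 higher, while 2.93% of all genes fell and 2.91% rose. When only the 10 compared arrays were fitted, 0 members of either list passed.

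Of the 15 core clock genes 1 rose, Nr1d1 (1.07, adjusted p = 0.0228), and 1 fell, Nfil3 (-0.90, adjusted p = 0.0459). Without arrays 22 and 23 their differences were 0.80 and -0.24 (adjusted p = 0.38 and 0.82 by limma). A clock score built from core clock genes had a range of -0.78 to 1.20 in FADD IEC-KO Mlkl -/- and -0.27 to 1.67 in FADD IEC-KO, with arrays 22 and 23 at 1.67 and 1.62. With this score as a covariate 408 genes fell and 406 rose, and with sex as a covariate 530 and 569. Genes beside Mlkl on its chromosome were also examined. Of the 40 nearest measured genes on its chromosome, 20 on each side, 5 passed: Calb2 (1.11) and Phlpp2 (0.48) rose, and Ldhd (-0.51), Kars (-0.32) and Znrf1 (-0.30) fell. Of all genes 2.91% rose and 2.93% fell. The 5 genes missed the threshold by limma without arrays 22 and 23 (adjusted p = 0.28 to 0.77). They also missed it in the fit of the 10 compared arrays alone (adjusted p = 0.079 to 0.21). None of the 5 passed in FADD IEC-KO Mlkl -/- against Fadd fl/fl, where their adjusted p lay between 0.807 and 0.997, or against FADD IEC-KO Zbp1 -/-, where it lay between 0.613 and 0.988.

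Mlkl loss was next set against Zbp1 loss on the same FADD IEC-KO background. Between FADD IEC-KO Mlkl -/- and FADD IEC-KO Zbp1 -/-, 39 genes were higher (0.2%) and 44 lower (0.226%). Mlkl had 7.00 to 7.33 in FADD IEC-KO Mlkl -/-, against 8.54, 8.51, 8.87, 8.97 and 8.55 in FADD IEC-KO Zbp1 -/- (-1.52, SE 0.17, adjusted p = 1.18e-07). Zbp1 had 6.64 to 7.13 in FADD IEC-KO Mlkl -/-, against 5.28, 5.77, 5.53, 6.10 and 4.77 in FADD IEC-KO Zbp1 -/- (1.32, SE 0.27, adjusted p = 0.00943). Irf7 had 8.99 to 9.55 in FADD IEC-KO Mlkl -/-, against 8.39, 8.09, 8.35, 8.15 and 8.06 in FADD IEC-KO Zbp1 -/-, with no overlap (1.11, SE 0.25, adjusted p = 0.0273). It passed in 4 of 10 fits that left out 1 array. Of the 25 type I genes 24 had a higher mean in FADD IEC-KO Mlkl -/-, with a median of 0.32. Irf7 was the 1 that passed, and 10 of the 25 were higher at an unadjusted p under 0.05. Of the 26 antimicrobial and stress genes 8 were lower at an unadjusted p under 0.05 and 0 passed by limma, with a median of -0.31. The share of all genes at that unadjusted threshold is not given here for the comparison with Zbp1 loss. The interferon-gamma list had a median of -0.08 in this comparison, and by limma 0 of 30 genes passed and 0 had an unadjusted p under 0.05. Hspb7, a small heat shock protein of muscle, had 9.44, 9.23, 9.57, 9.81 and 9.50 in FADD IEC-KO Mlkl -/-, against 8.58, 7.99, 8.41, 7.84 and 8.38 in FADD IEC-KO Zbp1 -/- (1.27, adjusted p = 0.0415), and it passed in 1 of 10 fits that left out 1 array. The smooth muscle list as a whole had a median of -0.01 there, and by limma 0 of 18 genes passed and 0 had an unadjusted p under 0.05. Sh3bgrl, an X-linked gene, was higher by 1.11 (8.99 to 9.13 in FADD IEC-KO Mlkl -/-, against 7.78, 7.59, 8.39, 7.97 and 8.07 in FADD IEC-KO Zbp1 -/-, adjusted p = 1.18e-07). Against FADD IEC-KO the difference of Sh3bgrl with Mlkl loss was 0.04 (adjusted p = 0.90 in the limma fit of those 10 arrays). Casp8 was higher by 0.46 than with Zbp1 loss (adjusted p = 0.0405) and passed in 3 of the 10 fits. Tnfsf10 was lower by 0.86 on the log2 scale, with 6.44 to 6.84 in FADD IEC-KO Mlkl -/-, against 7.05, 7.52, 7.73, 8.16 and 7.12 in FADD IEC-KO Zbp1 -/- (adjusted p = 0.0389), and it passed in 3 of the 10 fits. Slc7a9, an amino acid transporter subunit, and Gm11437, a predicted gene, were lower as well, with differences of -0.85 and -0.87, and each passed in 5 of the 10 fits. Zbp1 passed in 9 of the 10, and Mlkl and Sh3bgrl in all 10.

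The effect of Mlkl loss was then compared with its effect on the CASP8 IEC-KO background, as the difference of the 2 differences. It passed for 3 genes (0.0154%). Muc1 had 7.52 to 8.14 in FADD IEC-KO Mlkl -/-, against 8.63 to 10.13 in FADD IEC-KO, and on the other background 8.43, 8.13, 8.49, 8.40 and 8.46 in CASP8 IEC-KO Mlkl -/-, against 7.60, 8.21, 7.75, 7.60 and 7.52 in CASP8 IEC-KO. The difference of the effects was -2.07 (SE 0.32, adjusted p = 0.00109), and it passed in all 20 fits that left out 1 array, in the fit of the 20 compared arrays (adjusted p = 0.00432) and without arrays 22 and 23 (adjusted p = 0.0331). Zfp532, a zinc finger protein (1.15, SE 0.21, adjusted p = 0.0105), and Rps14, a ribosomal protein (-0.52, SE 0.09, adjusted p = 0.0105), did not pass in the fit of the 20 arrays (adjusted p = 0.10 and 0.12) or without arrays 22 and 23 (0.19 and 0.18). The interferon-gamma list had a median difference of -1.09 with Mlkl loss on the FADD IEC-KO background and -0.14 on the CASP8 IEC-KO background, and the neutrophil list -1.27 and -0.10. The difference between the backgrounds did not pass for any gene of these lists. Without FADD IEC-KO array 21 the count of genes was 116.

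Finally, genes were taken from a comparison whose group means share no array with this one. The calls of both comparisons nevertheless came from the main fit, which took each gene's spread within groups from all arrays. A gene with a small spread was therefore easier to call in both. The shared calls are thus not independent, and their shares against those of all genes are given as a description only. In the second number series 1326 genes rose (6.8%) and 828 fell (4.25%) in FADD IEC-KO against Casp8 fl/fl, which are controls with floxed Casp8 rather than Fadd. Of the 1326 that rose, 272 fell with Mlkl loss, which is 20.5% of the first list and 47.6% of the 572 that fell, against 2.93% of all genes, and 1 rose. Their median difference with Mlkl loss was -0.20, and 1177 of 1326 had a lower mean. Of the 828 that fell, 139 rose with Mlkl loss, which is 16.8% of the first list and 24.5% of the 568, against 2.91% of all genes, and 0 fell, with a median difference of 0.17. In the fit of the 10 arrays of Mlkl loss alone 34 genes fell and 17 rose. With the 10 arrays of each comparison fitted alone the shared counts were 18 and 0. They were 111 to 436 and 55 to 276 when 1 array was left out, with 111 and 61 without FADD IEC-KO array 22, and 119 and 67 without array 23.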

How the data were processed

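RNA from mouse colon was measured on Affymetrix arrays, from 100 ng of total RNA per sample, per the labels' protocols. The files hold 1 log2 signal for each probe set and array, made and deposited by the authors with Affymetrix Expression Console and Transcriptome Analysis Console, per the submitters' processing notes; which normalization was applied is not stated there. Of 22142 probe sets, 19527 had 1 gene symbol in the platform's annotation and 2615 had none, 33 were dropped as the second of a symbol, and 19494 genes were tested. The number of arrays limits the precision.

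A linear model with 1 mean for each of 10 groups (genotype within each title-number series) was fitted over all 50 arrays with limma 3.58.1 in R 4.3.3, with 40 residual degrees of freedom, moderated variances and Benjamini-Hochberg adjustment over all genes. A gene was called at an adjusted p under 0.05. The procedure was tested on simulated data. Every adjusted p in the text comes from limma.

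The genes given by name were the 12 called genes with the largest change each way and no overlap between arrays (predicted and sex-linked genes left out), up to 4 members of each list with the smallest adjusted p, the targeted genes, and the largest changes of the other comparisons; others are said to be chosen after their values were seen or stand for a count. The comparison and the 32 gene lists were chosen with earlier results of these data known. Alternatives were fits of the compared arrays alone, variance weights per group, other series terms, a further quantile normalization, leaving out the dimmest 40% of genes, trended and robust variances, sex and clock covariates, a 2-fold minimum and leaving out arrays. Title numbers are unique, so no samples were paired. Promoter sequence came from the RefSeq table of build GRCm38.p6.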

Additional observations from a re-analysis of the deposited data

Results flagged for a closer look

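Of 238 sets of 5 arrays, each a gene in a group, that were checked for an array that stands apart, 10 were flagged, fewer than the 1 in 20 that chance gives. The value is the gap to the nearest array divided by the group's range, with a critical value of 0.71. In FADD IEC-KO Mlkl -/-, Retnlb was highest in array 13 (3.40, the others 2.94 to 3.02, gap share 0.832), as was Cxcl2 (5.12, the others 4.68 to 4.77, 0.792). Ly6c2 was lowest in array 14 (7.31, the others 7.51 to 7.57, 0.799), and array 15 was lowest for Muc1 (7.52, the others 7.97 to 8.14, 0.734) and Galnt12 (6.90, the others 7.31 to 7.45, 0.744). Axin2 was lowest in array 11 (7.81, the others 8.04 to 8.08, 0.838).

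In FADD IEC-KO, array 21 stood apart for Clca4b (10.02, the others 11.88 to 12.60, 0.722), Ddah1 (8.17, the others 9.56 to 10.01, 0.757) and C1qtnf3 (6.09, the others 4.96 to 5.26, 0.737), each time on the side of FADD IEC-KO Mlkl -/-. Rrm2, a subunit of ribonucleotide reductase used in proliferation, was highest in array 22 (8.66, the others 7.73 to 7.84, 0.883).

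The effect of Mlkl loss on the FADD IEC-KO background differed from that on CASP8 IEC-KO for Muc1 (difference of the log2 effects -2.07), Zfp532 (1.15) and Rps14 (-0.52), by the interaction term of the limma fit.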

How the results depend on the processing

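The number of genes called depended on the arrays fitted. Against 572 that fell and 568 that rose, the 10 compared arrays alone gave 34 and 17, the same 10 with a variance weight per group 164 and 161, a series term with 1 mean per genotype 320 and 247, and a 2-fold minimum 131 and 57. Without FADD IEC-KO arrays 22 and 23 the counts were 8 and 0, with 988 and 1023 at an unadjusted p under 0.05 by limma. Leaving out 1 array gave 190 to 1072 that fell (lowest without FADD IEC-KO 23, 199 without 22, 329 without FADD IEC-KO Mlkl -/- 14, highest without FADD IEC-KO 21) and 196 to 1084 that rose (lowest without 22, 198 without 23, 329 without 14, highest without 21). Weights over all arrays, both series averaged, a further quantile normalization, leaving out the dimmest 40% of genes, trended and robust variances, sex and the clock score gave 408 to 622 that fell and 406 to 640 that rose.

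The 31 genes changed against Fadd fl/fl were 31 with the 10 compared arrays, 14 of them in both fits, and became 8 to 72 (8 without Fadd fl/fl 29, 72 without 26, 9 without FADD IEC-KO Mlkl -/- 11). The 83 changed against FADD IEC-KO Zbp1 -/- became 34 to 98 (34 without FADD IEC-KO Zbp1 -/- 02, 98 without 01). The 3 genes that differed between backgrounds became 1 with the 20 compared arrays, 1 without arrays 22 and 23, and 2 to 116 with 1 array left out (2 without FADD IEC-KO 22, 116 without 21). The 272 and 139 genes shared with FADD IEC-KO against Casp8 fl/fl became 18 and 0 with the arrays of each comparison alone, and 111 to 436 and 55 to 276 with 1 array left out (55 without FADD IEC-KO 117, 276 without 95).

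Of 119 genes given by name 97 were called. Leaving out 1 array kept 56 (without FADD IEC-KO 22) to 96 (without 21) of the 97, leaving out both 22 and 23 kept 3 (Mlkl, Ccl8 and Cd177), and the 10 compared arrays alone kept 18. None of the 97 changed direction under any alternative run; of the 572 genes that fell, 570 kept their direction without arrays 22 and 23. No paired analysis was possible because no title number occurs in more than 1 group.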
